A study of Mus musculus with 6 samples.

Results

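The nuclei described here carried the transcripts of indirect-pathway striatal projection neurons, with Drd2 (the D2 dopamine receptor) and Adora2a (the A2a adenosine receptor) but without Drd1 (the D1 dopamine receptor). A nucleus was taken as Drd2-type where its mitochondrial transcripts made up under 10% of its unique molecular identifiers (UMIs, each counting 1 captured RNA molecule), where it held at least 2 UMIs of Rgs9, at least 3 of Pde10a and at least 2 of Drd2 and Adora2a together, no UMI of Drd1, and at most 1 UMI each of Slc17a7 and Lhx6. Of 75878 barcodes, 11 were left out by the mitochondrial limit, and 1650 of the 75867 kept met the rule, 2.17% of them (exact binomial 95% interval 2.07 to 2.28%). The 7 genes of the rule were measured in the same nuclei, so the nuclei were chosen by the measured UMIs of these genes, whose levels are given only as a description.

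The nuclei were isolated from forebrain that was dissected at P16 (postnatal day 16) and flash frozen, from 3 wild-type (WT) mice and 3 Npc1-/- littermates, with no treatment. Npc1-/- mice carry a null allele of Npc1 (Npc1nih) in every cell, and all the mice were F1 hybrids of the BALB/cJ and C57BL6/J strains. NPC1 moves cholesterol out of late endosomes and lysosomes. Each mouse gave 1 droplet library (10x Genomics, 3' version 2 chemistry), and the 6 libraries were told apart only by a number from 1 to 6 at the end of each barcode. No source used here ties these numbers to a mouse, so WT and Npc1-/- were not compared, libraries are given singly or by their lowest, median and highest value, and no p-value is printed.

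The striatum sends its output through a pair of projection neuron types that are similar in number and intermingled in the tissue. Direct-pathway neurons carry the D1 receptor, which raises cAMP, and release substance P and dynorphin with GABA. Indirect-pathway neurons carry the D2 receptor, which lowers cAMP, together with the A2a adenosine receptor, which raises it, and release enkephalin with GABA towards the globus pallidus. The transcription factors Sp9 and Six3 act in the making of indirect-pathway neurons, and Isl1 and Ebf1 in that of direct-pathway neurons.

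The promoters of 4 genes on which the results turn are shown, because a reader can then see the start region of the receptor that chose the nuclei (Drd2) and of 3 indirect-pathway genes that played no part in the choice (Oprd1, the delta opioid receptor, Gpr6, an orphan G protein-coupled receptor that is active without ligand, and Sp9). Each run is the 250 bases before the gene's RefSeq start in GRCm38.p6, 5′ to 3′ on the gene's strand. The Drd2 run lies at chr9:49340153-49340402 on the plus strand, Oprd1 at chr4:132144487-132144736 on the minus strand, Gpr6 at chr10:41072291-41072540 on the minus strand and Sp9 at chr2:73271676-73271925 on the plus strand. Capitals mark a GC box, searched as GGGCGG or its other-strand form CCGCCC, and in Gpr6 a cAMP response element, searched as TGACGTCA, which reads the same on both strands.
Drd2: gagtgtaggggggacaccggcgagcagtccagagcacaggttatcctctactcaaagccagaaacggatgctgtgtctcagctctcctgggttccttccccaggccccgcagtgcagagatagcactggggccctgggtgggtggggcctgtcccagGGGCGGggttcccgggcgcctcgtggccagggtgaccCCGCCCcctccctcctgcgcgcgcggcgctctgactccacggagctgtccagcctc
Oprd1: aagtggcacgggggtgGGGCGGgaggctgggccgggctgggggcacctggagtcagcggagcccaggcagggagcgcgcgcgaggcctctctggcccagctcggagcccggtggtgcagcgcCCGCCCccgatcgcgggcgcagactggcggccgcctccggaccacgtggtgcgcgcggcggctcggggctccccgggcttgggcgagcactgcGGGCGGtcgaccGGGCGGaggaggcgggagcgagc
Gpr6: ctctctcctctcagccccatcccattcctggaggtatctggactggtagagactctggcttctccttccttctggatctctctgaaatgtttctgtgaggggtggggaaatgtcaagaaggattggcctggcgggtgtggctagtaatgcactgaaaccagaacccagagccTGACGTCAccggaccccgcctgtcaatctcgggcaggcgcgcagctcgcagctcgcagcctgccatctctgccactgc
Sp9: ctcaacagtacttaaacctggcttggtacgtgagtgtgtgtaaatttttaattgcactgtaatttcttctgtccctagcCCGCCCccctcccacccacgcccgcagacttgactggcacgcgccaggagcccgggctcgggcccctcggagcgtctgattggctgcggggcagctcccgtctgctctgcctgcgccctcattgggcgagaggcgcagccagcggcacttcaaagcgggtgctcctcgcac
The Drd2 run held 2 GC boxes, the Oprd1 run 4, the Sp9 run 1 and the Gpr6 run 0 with 1 cAMP response element. A GC box occurred in 32.9% of the 27025 promoters of the reference table and in 58.3% of the 9978 promoters of genes tested below, so its presence in 3 of these 4 runs is common among such genes. The cAMP response element, a motif chosen after values had been seen, occurred in 2.86% of the promoters of genes tested and in 4 of the 90 promoters of genes higher in Drd2-type nuclei. These matches describe letters and not binding.

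The 6 libraries gave 310, 319, 296, 285, 226 and 214 Drd2-type nuclei, which made up between 1.98% and 2.61% of each library's kept nuclei, with a median of 2.17%. They held 15119051 UMIs in all, with a median of 8022 UMIs and 3034 genes per nucleus, against a median of 4957 UMIs over all kept nuclei. The library medians of the Drd2-type nuclei lay between 7234 and 8623, and since the rule asks for UMIs, membership and depth cannot be told apart. Within the gate, Rgs9 (a striatal regulator of G protein signalling) had a median of 6 UMIs, Pde10a (the striatal phosphodiesterase) 30, Drd2 3 and Adora2a 1. Adora2a was at 0 in 537 of the nuclei and Drd2 in 53.

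The edges of the rule were populated. The 2 UMIs of Drd2 and Adora2a that the rule asks for were just met in 357 nuclei, and a further 443 passed all other criteria with a sum of 1. Rgs9 was at its lowest allowed value of 2 in 184 nuclei, and 195 nuclei failed by Rgs9 alone with 1 UMI. Drd1 alone, with 1 UMI, kept out 119 nuclei, whose median depth of 11525 UMIs was above that of the nuclei taken in. Barcode sequences that occurred in more than 1 library numbered 631 of 75245, and 32 Drd2-type nuclei carried such a sequence.

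For comparison, 295 Drd1-type nuclei were taken by the mirrored rule, with at least 2 UMIs of Drd1 and none of Drd2 or Adora2a (74, 57, 55, 45, 39 and 25 in libraries 1 to 6). Their median depth was 10141 UMIs. Drd2-type nuclei made up 84.8% of both types together, between 80.7% and 89.5% over libraries, but the rule counts UMIs of 2 receptors for one type and of 1 for the other. In the striatal gate without the receptor criteria there were 6059 nuclei, of which 27.2% were Drd2-type and 2666 held no UMI of Drd2, Adora2a or Drd1, so the share is not a share of neurons in the striatum.

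Levels are a gene's UMIs added up across a class, for every 1000000 UMIs that the class held (CPM), and differences are log2 ratios of these sums with an exact 95% interval. All intervals cover counting error only and not differences between mice or nuclei. A gene with at least 50 UMIs in both classes together was called higher or lower where the sums differed by at least 2-fold and all 6 libraries had the same direction. A library in which only 1 class held UMIs of the gene counted in the direction of that class. Drd1-type nuclei held 3418789 UMIs, fewer than the 15119051 of Drd2-type nuclei, so this could favour calls of higher. Over the 13206 genes tested the median log2 ratio was 0.03 (quartiles -0.12 and 0.20), 127 genes were called higher in Drd2-type nuclei (0.962%) and 36 lower (0.273%). With at least 200 UMIs, 37 were called higher and 18 lower. Of the 127, 46 were also called with a stricter rule for both classes and 44 with a looser one.

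Drd2-type nuclei stood apart from Drd1-type nuclei in the peptide, receptor and transcription factor genes that mark the indirect pathway. Of the 15 indirect-pathway genes listed, which leave out the receptors of the rule, 14 could be tested and 11 were called higher, against the 0.962% of all genes tested that were called higher, with none called lower and a median log2 ratio of 1.80. Their summed level was 2395 CPM in Drd2-type and 1068 CPM in Drd1-type nuclei. The log2 ratio of 1.17 (95% interval 1.12 to 1.21) lay between 0.71 and 1.57 in single libraries. The same genes summed to 1342 CPM in excitatory, 2327.5 CPM in Lhx6 interneuron and 1542 CPM in microglial nuclei, classes described below. Drd1-type nuclei were thus the lowest of these classes, and the sum hardly set Drd2-type nuclei apart from Lhx6 interneuron nuclei. Members and lists were chosen with such differences known, so the count describes these nuclei and is no independent evidence.

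Penk, which encodes the enkephalin precursor, was at 119, 127, 144, 100.1, 159 and 147 CPM in the Drd2-type nuclei of libraries 1 to 6 and at 15.8, 27.7, 24.1, 12.9, 5.37 and 11.1 CPM in the Drd1-type nuclei. The lowest Drd2-type library was above the highest Drd1-type library. From 1975 and 61 UMIs the log2 ratio was 2.87 (2.50 to 3.26), and it stayed between 2.63 and 3.11 under every alternative tried. After each nucleus was thinned to 3000 UMIs, which left out 18 Drd2-type, 2 Drd1-type and 631 microglial nuclei as too shallow, 29.5% of Drd2-type nuclei had a Penk UMI (27.3 to 31.8%), against 4.10% of Drd1-type nuclei and 6.95% of microglial nuclei, which should not make Penk. The unthinned shares were 56.3%, 14.9% and 12.5%, at median depths of 8022, 10141 and 4121 UMIs. Microglial nuclei with at most 1 UMI of neuronal genes had a thinned share of 6.75% (4.91 to 9.02%). The interval of the Penk share of Drd1-type nuclei (2.13 to 7.04%) overlapped those of the microglial shares (5.57 to 8.54% for the 6.95%). It also overlapped those of excitatory nuclei, 2.83% (2.36 to 3.36%, 99 left out), and of Lhx6 interneuron nuclei, 0.810% (0.10 to 2.89%). The place of the Drd1-type share among these is therefore not settled. Both microglial intervals lay above those of excitatory and Lhx6 interneuron nuclei. Whether the Drd1-type share is background was not tested.

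Oprd1, the receptor for which enkephalin is a main ligand, was at 67.4, 63.5, 54.4, 64.2, 81.3 and 73.2 CPM in Drd2-type nuclei. In Drd1-type nuclei it was at 2.25, 4.16, 0, 16.6, 2.69 and 0 CPM, with library 4 the highest. The groups did not overlap, and from 998 and 15 UMIs the log2 ratio was 3.91 (3.18 to 4.75), or 4.99 without library 4. Thinned, 18.3% of Drd2-type nuclei had an Oprd1 UMI, against 1.71% of Drd1-type and 1.68% of microglial nuclei. The separate thinning gave 2.35% for all microglial nuclei and 0.643% for those with at most 1 UMI of neuronal genes.

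Grik3, which encodes the kainate receptor subunit GluK3, was at 240, 254, 261, 241, 251 and 221 CPM in Drd2-type nuclei and at 36.0, 29.1, 24.1, 77.4, 2.69 and 11.1 CPM in Drd1-type nuclei. Library 4 was again the highest of the Drd1-type values, and all 6 lay well below the lowest Drd2-type value. The log2 ratio was 2.88 (2.61 to 3.16).

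**Figure D1:**
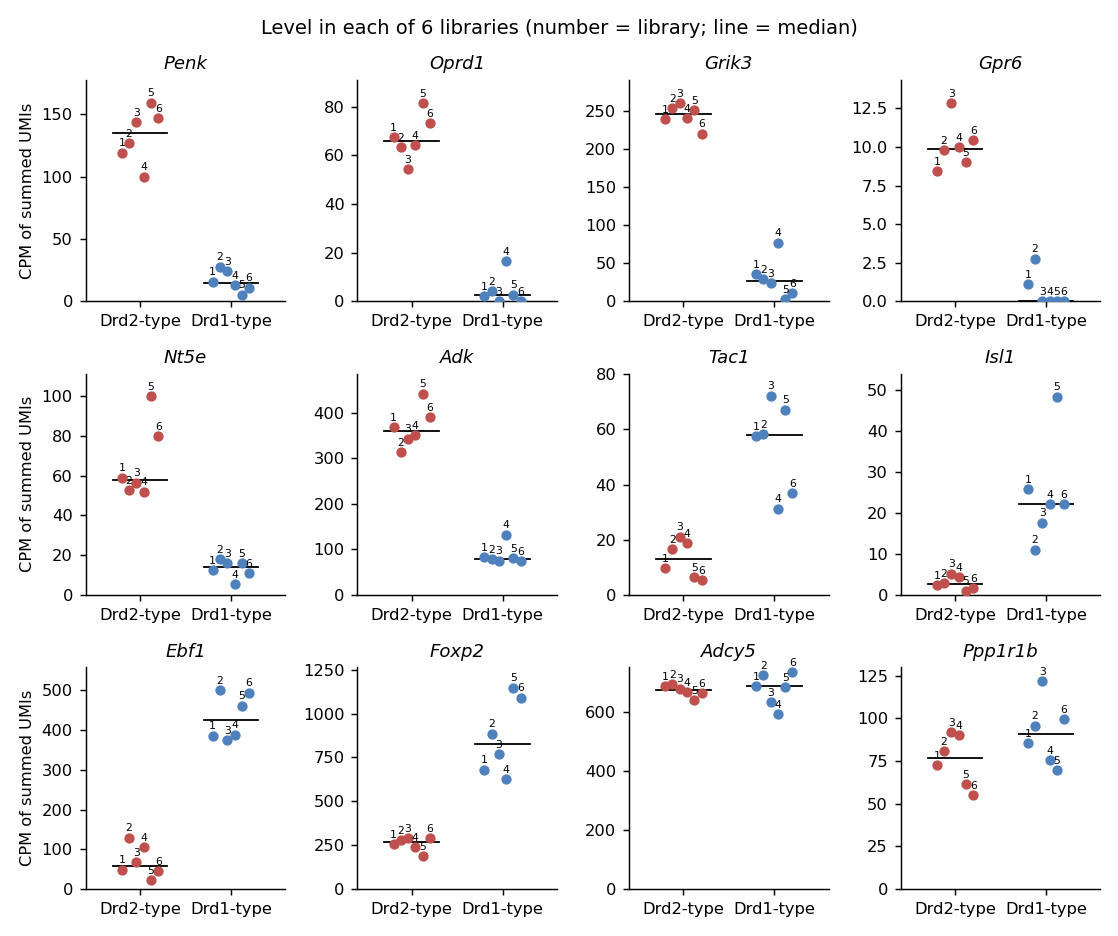
Each panel plots 1 gene's CPM of summed UMIs (linear axis from 0) in the Drd2-type and Drd1-type nuclei of each library, with the library number beside the point and a line at the median. The Drd2-type values of Penk, Oprd1, Grik3, Gpr6, Nt5e and Adk lay above all Drd1-type values, those of Tac1, Isl1, Ebf1 and Foxp2 below, and those of Adcy5 and Ppp1r1b overlapped.

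The orphan receptors Gpr6 and Gpr52, both found on indirect-pathway neurons, had few UMIs in Drd1-type nuclei. Gpr6 had 153 UMIs in Drd2-type nuclei, between 8.42 and 12.8 CPM over libraries, and 3 UMIs in Drd1-type nuclei, a ratio of 11.5 (95% interval 3.87 to 56.5). Library 2 held 2 of those 3 UMIs, and the log2 ratio was 3.53 with it and 4.78 without it. Gpr52 had 84 UMIs against 1, a ratio of 19.0 (3.32 to 759), with 3.19 to 9.90 CPM in the Drd2-type libraries. Only 1 library held a Drd1-type UMI of Gpr52, so all 6 libraries counted as higher mostly through the absence of such UMIs.

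Among transcription factors, Sp9 was at 20.2, 16.4, 16.6, 11.6, 15.4 and 13.2 CPM in Drd2-type nuclei and at 2.25, 1.39, 8.02, 11.1, 0 and 0 CPM in Drd1-type nuclei. The lowest Drd2-type library only just exceeded the highest Drd1-type library, library 4 in both cases. The log2 ratio was 1.95 (1.18 to 2.85), or 2.59 without library 4. Six3 lay between 17.6 and 27.5 CPM in Drd2-type nuclei and between 7.37 and 14.4 CPM in Drd1-type nuclei, with a log2 ratio of 1.18 (0.69 to 1.72). Its ratio came under 2-fold in at least 1 alternative.

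Adk, the remaining signalling gene of the list, is described below with adenosine. Ptprm, a receptor tyrosine phosphatase of the cell surface, Necab1, a neuronal calcium-binding protein, and Plxdc1 were also called higher, with log2 ratios of 1.64, 1.65 and 1.64. Necab1 lay between 305 and 438 CPM in Drd2-type and between 49.9 and 184 CPM in Drd1-type nuclei, so the ranges did not meet. For Ptprm the highest Drd1-type library reached 319 CPM against a lowest Drd2-type library of 439 CPM. Synpo2, Ajap1 and Cadm1 were not called, at log2 ratios of 0.28, 0.03 and 0.06, and P2ry1 had 42 and 5 UMIs, too few to test.

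**Figure D2:**
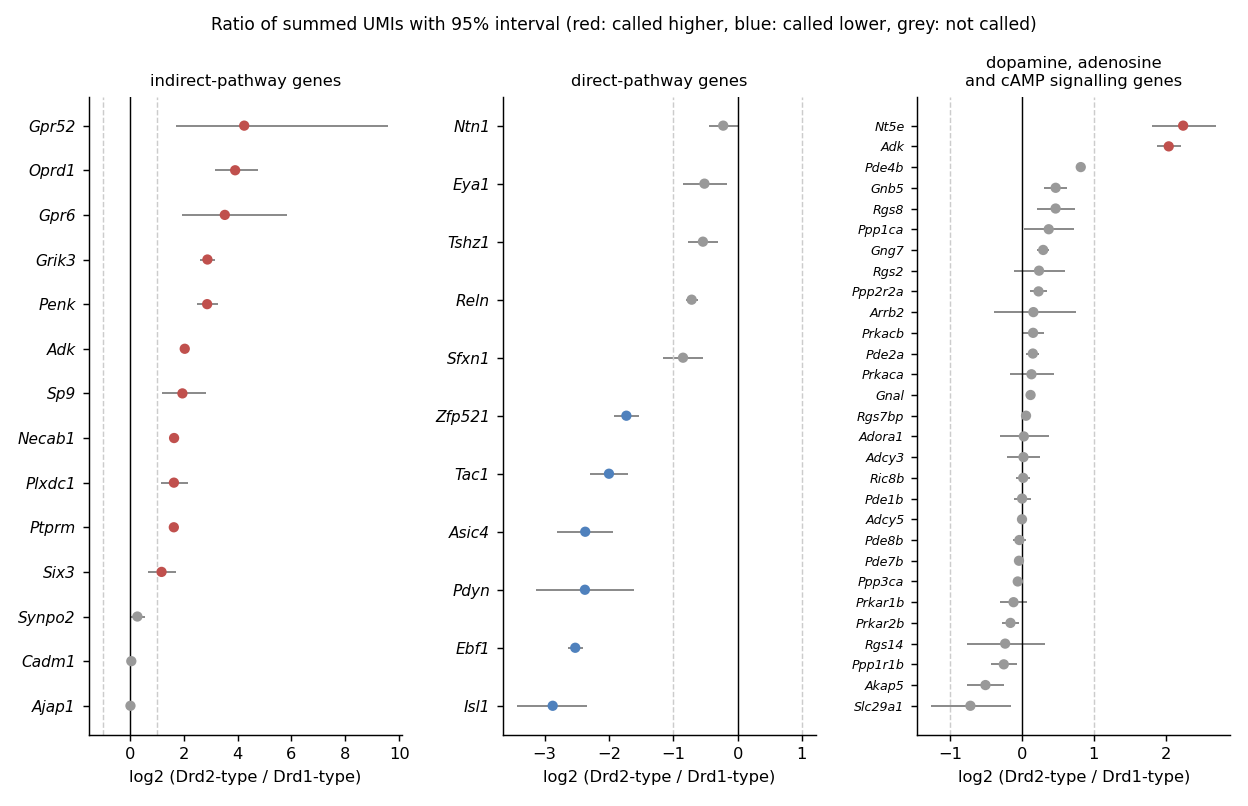
Points give the log2 ratio of summed UMIs of Drd2-type over Drd1-type nuclei for tested genes of 3 lists, with bars for the 95% counting interval and dashed lines at 2-fold. In the indirect-pathway list 11 genes were called higher (red), in the direct-pathway list 6 lower (blue), and in the dopamine, adenosine and cAMP list 2 higher, with the grey points between -0.72 (Slc29a1) and 0.82 (Pde4b).

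Of 4 adenosine genes around the A2a receptor, 2 were called higher. Nt5e, which encodes CD73, the surface enzyme that makes adenosine from AMP, was at 58.9, 52.7, 56.5, 51.9, 99.9 and 79.8 CPM in Drd2-type nuclei and at 12.4, 18.0, 16.04, 5.53, 16.1 and 11.1 CPM in Drd1-type nuclei. The groups did not overlap, and the log2 ratio was 2.24 (1.81 to 2.70). Adk, the kinase that clears adenosine inside the cell, was at 368, 314, 343, 351, 442 and 389 CPM in Drd2-type nuclei and at 83.3, 79.1, 75.4, 133, 80.6 and 73.8 CPM in Drd1-type nuclei. Its log2 ratio was 2.04 (1.87 to 2.21), and both enzymes, the maker and the remover of adenosine, were thus higher in Drd2-type nuclei. After thinning, an Nt5e UMI was found in 17.9% of Drd2-type, 5.12% of Drd1-type and 3.10% of microglial nuclei. For Adk the thinned shares were 56.5%, 21.8% and 37.4%, but microglia may make Adk themselves, so the last share is no background. Slc29a1, the transporter that lets adenosine cross the membrane, had a log2 ratio of -0.72 (-1.26 to -0.15), lower in 6 of 6 libraries, and Adora1, the A1 adenosine receptor, of 0.03, and neither was called.

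Nt5e and Adk were the only ones called among the 30 dopamine, adenosine and cAMP signalling genes listed, all of which were tested, against 0.962% of all genes called higher and 0.273% lower. The median log2 ratio of the 30 was 0.08, against 0.03 over all genes tested. Adcy5, the adenylyl cyclase on which the D1, D2 and A2a receptors act, was at 675 CPM in Drd2-type and 674 CPM in Drd1-type nuclei, with libraries between 640 and 693 and between 593 and 734 CPM. Gnal, the stimulatory G protein of striatal neurons, had a log2 ratio of 0.12, and Pde1b, a calcium-activated phosphodiesterase, one of 0.00. Pde4b, a cAMP phosphodiesterase, was at 1388 to 1708 CPM in Drd2-type and 798 to 1104 CPM in Drd1-type libraries, with no overlap, but its log2 ratio of 0.82 (0.76 to 0.87) was short of 2-fold. Ppp1r1b (DARPP-32, the phosphatase inhibitor downstream of these receptors) was at 77.4 and 92.1 CPM, and its libraries overlapped.

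Of 22 genes that mark striatal projection neurons of both pathways, none was called higher and Foxp2 alone lower. Among all genes tested 0.962% were called higher and 0.273% lower, so a count of none is no result about a list. Ikzf1, a zinc finger factor, had a log2 ratio of -0.83 (-1.33 to -0.32) and was lower in 5 of 6 libraries. The median log2 ratio was -0.05 and the summed level 21383 against 20436 CPM. Phactr1 alone, with 152363 and 30043 UMIs, made up a large part of both sums. Microglial nuclei held 6368 CPM of the same list, so the sum is not striatal RNA alone. The transcription factor Foxp1 had a log2 ratio of 0.27 and Meis2 one of 0.25. The 5 GABA synthesis and release genes, among them Gad1 and Slc32a1 (the vesicular GABA transporter), had none called and a summed level of 711 CPM in both types. Excitatory nuclei held 7807.5 CPM of the shared list and 87.7 CPM of the GABA genes, and Lhx6 interneuron nuclei 2662 and 908 CPM. By these levels, and not by the counts, both striatal types carried genes of the label that the rule did not use.

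Foxp2, a transcription factor of the forkhead family, was at 256, 277, 291, 239, 189 and 291 CPM in Drd2-type nuclei and at 681, 887, 768, 626, 1149 and 1092 CPM in Drd1-type nuclei. The groups were far apart, with a log2 ratio of -1.65 (-1.72 to -1.58). Drd2-type nuclei still held more Foxp2 than excitatory nuclei (118 CPM).

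Direct-pathway genes were lower in Drd2-type than in Drd1-type nuclei. Of the 15 listed, which leave out Drd1, 12 could be tested, and 6 were called lower, against 0.273% of all genes tested, with none called higher and a median log2 ratio of -1.29. The summed level was 510 CPM in Drd2-type and 1239 CPM in Drd1-type nuclei. The log2 ratio of -1.28 (-1.34 to -1.23) lay between -1.57 and -0.95 in single libraries. Excitatory nuclei held 183 CPM of these genes, Lhx6 interneuron nuclei 489 CPM and microglial nuclei 478 CPM. The Drd2-type sum was thus low against Drd1-type nuclei only.

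Tac1, the precursor of substance P, was at 9.77, 16.7, 21.1, 18.8, 6.38 and 5.50 CPM in Drd2-type nuclei and at 57.4, 58.3, 72.2, 31.3, 67.1 and 36.9 CPM in Drd1-type nuclei. Its log2 ratio was -2.0 (-2.29 to -1.71), with no overlap. The thinned share with a Tac1 UMI was 3.98% in Drd2-type nuclei and 15.7% in Drd1-type nuclei. In microglial nuclei it was 4.94%. The separate thinning gave 4.52% for all microglial nuclei and 3.54% (2.23 to 5.31%) for those with at most 1 UMI of neuronal genes. The Drd2-type share (3.09 to 5.05%) could not be told from these microglial shares. It was above the 2.26% (1.85 to 2.75%) of excitatory nuclei. Lhx6 interneuron nuclei had 7.69% (4.69 to 11.8%), an interval that overlapped the Drd2-type one. Such an overlap does not decide how the shares compare. By summed UMIs, the Tac1 log2 ratio of Drd2-type over Lhx6 interneuron nuclei was -0.53 (-0.96 to -0.07), positive in 2 of 6 libraries. How much of the Drd2-type share is background was not tested. Pdyn, the dynorphin precursor, had only 29 and 34 UMIs, at 0.531 to 3.59 CPM and 4.81 to 14.8 CPM over libraries, with a log2 ratio of -2.37.

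Isl1, a homeobox factor of direct-pathway neurons, was at 2.36, 2.94, 5.20, 4.39, 1.06 and 1.65 CPM in Drd2-type nuclei and at 25.9, 11.1, 17.7, 22.1, 48.3 and 22.1 CPM in Drd1-type nuclei. Its log2 ratio of -2.88 (-3.43 to -2.34) was the largest negative one in the list among genes tested. Asic4, of the acid-sensing ion channel family, and the zinc finger factor Zfp521 had -2.37 and -1.73. Sfxn1, Eya1, Tshz1, Ntn1 and Reln were not called, with log2 ratios from -0.85 (Sfxn1) to -0.22 (Ntn1). Slc35d3 and Chrm4 (the M4 muscarinic receptor) had 37 and 6 UMIs in both types together and Dlk1 was also too low, so they were not tested.

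Ebf1, a helix-loop-helix factor, was at 48.8, 129, 67.2, 105, 21.3 and 44.6 CPM in Drd2-type nuclei and at 386, 501, 375, 389, 462 and 494 CPM in Drd1-type nuclei, with a log2 ratio of -2.52 (-2.64 to -2.41). Since its Drd2-type values spanned 21.3 to 129 CPM over libraries, the nuclei that carried it were looked at by themselves, a step chosen after values had been seen. Of the 1650 Drd2-type nuclei, 1409 had no Ebf1 UMI and 185 had 1 to 4. The 56 nuclei with 5 or more held 839 of the 1118 Ebf1 UMIs, 75%.

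Those 56 nuclei also carried transcripts of blood vessel cells, in which Ebf1 is likewise expressed. Flt1, a VEGF receptor of endothelium, was at 654 CPM in them and at 21.2 CPM in the 1409 nuclei without Ebf1, and Rgs5, a pericyte gene, at 500 and 39.4 CPM. Their median depth was 14828 UMIs, Penk was at 71.5 CPM against 139 CPM in nuclei without Ebf1, and the libraries held 9, 19, 10, 13, 1 and 4 of them. The 115 Drd1-type nuclei with 5 or more Ebf1 UMIs had 65.0 CPM of Flt1 and 41.6 CPM of Rgs5. Leaving out all nuclei with at least 3 UMIs of Flt1, Rgs5, Pecam1 and Cldn5 together (9.33% of Drd2-type and 11.9% of Drd1-type nuclei) moved the Ebf1 log2 ratio to -3.55.

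**Figure D3:**
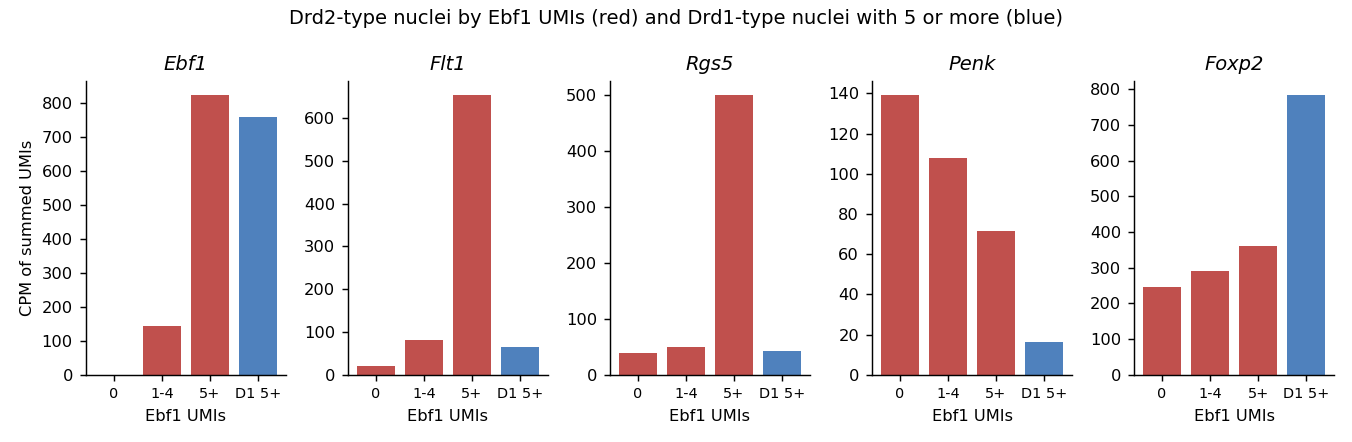
Bars give the CPM of summed UMIs (linear axes from 0) of 5 genes in Drd2-type nuclei with 0, 1 to 4 and 5 or more Ebf1 UMIs (red) and in Drd1-type nuclei with 5 or more (blue). The 56 Drd2-type nuclei with 5 or more had 654 CPM of Flt1 and 500 CPM of Rgs5, while Drd1-type nuclei with as much Ebf1 had 65.0 and 41.6 CPM.

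Few genes of other receptor and channel families were called, and the counts are to be read against the 0.962% of all genes called higher and 0.273% called lower. Among 10 muscarinic, opioid and cannabinoid genes tested, Oprd1 and Chrm3 (the M3 muscarinic receptor) were called higher, while Oprm1 (mu opioid receptor) had a log2 ratio of 0.32 and Oprk1 (kappa opioid receptor) of -0.79. Among 19 glutamate receptor genes only Grik3 was called, and the list's median was 0.01. None of the 18 potassium and calcium channel genes was called, and their median was -0.07.

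Chrm3 shows that a difference between the 2 striatal types need not set Drd2-type nuclei apart from other cells. It was at 348 to 473 CPM in Drd2-type libraries and 48.3 to 240 CPM in Drd1-type libraries, a log2 ratio of 1.71 (1.57 to 1.85). Excitatory nuclei held 980 CPM and Lhx6 interneuron nuclei 707 CPM, both above the 425 CPM of Drd2-type nuclei. Microglial nuclei held 484 CPM, or 320 CPM in those with at most 1 UMI of neuronal genes. Unc5d, a netrin receptor, was at 724 CPM in Drd2-type and 172 CPM in Drd1-type nuclei (log2 ratio 2.07, 1.95 to 2.20), with 841 and 1055 CPM in excitatory and Lhx6 interneuron nuclei. Nell1, a secreted glycoprotein, was at 332 to 420 CPM and 48.3 to 151 CPM over libraries (log2 ratio 1.84), and at 380 and 370 CPM in those neuron classes. For these 3 genes the Drd1-type nuclei were the lowest of the 4 neuron classes.

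Further genes called higher, by their size of ratio, included Crhr1, a receptor for corticotropin-releasing hormone (log2 ratio 1.90, 1.26 to 2.61), Fig4, a phosphoinositide phosphatase of endolysosomes (1.67, 1.34 to 2.02), Htr7, a serotonin receptor (1.56, 0.89 to 2.32), and Glra3, a glycine receptor subunit (1.56, 0.90 to 2.30). Fig4 lay between 63.4 and 79.8 CPM in Drd2-type and between 16.1 and 27.6 CPM in Drd1-type libraries. Htr7 and Crhr1 each reached 12.9 CPM in a Drd1-type library. The lowest Drd2-type library held 11.8 CPM of Htr7, so its ranges overlapped, and 20.1 CPM of Crhr1, whose ranges did not. With a looser rule of 1 receptor UMI in both classes, the log2 ratio was 1.01 for Crhr1 and 0.55 for Glra3. Mro, Insyn2a, Anxa3, Cpne7 and Acsbg1 had smaller differences, with log2 ratios between 1.16 and 1.36.

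Genes called lower beyond the lists included Lingo2, a leucine-rich repeat membrane protein, at 485 to 1112 CPM in Drd2-type and 2290 to 3198 CPM in Drd1-type libraries (log2 ratio -1.90, -1.94 to -1.86). Cntnap3, a neurexin-like adhesion protein, had a log2 ratio of -2.22 (-2.45 to -1.98), Sntg2, a syntrophin, of -2.21 (-2.44 to -1.98), and Kcnk13, a potassium leak channel, of -1.69 (-1.98 to -1.41). Il1rapl2, Onecut2, Gfra1, the GDNF co-receptor, and Cftr, the chloride channel, followed with -1.56, -1.46, -1.44 and -1.39. In the list for eccentric striatal neurons Adarb2 was called lower, at 105 to 364 CPM against 555 to 1391 CPM. Its log2 ratio was -1.82, or -1.09 with the looser rule. None of the other 6 genes tested was called, against 0.273% of all genes tested called lower, so the count is no result about that list.

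Of the lists for compartments, maturation and lipid handling, none had more than 1 gene called, against 0.962% of all genes called higher and 0.273% lower. Such counts are no result about these lists. Of 8 genes of the matrix compartment, Zfp804a alone was called higher (log2 ratio 1.04, 511 to 727 against 264 to 379 CPM), and none of 7 patch genes was. The matrix genes, Zfp804a included, summed to 2095 against 1671 CPM. Their log2 ratio of 0.33 (0.29 to 0.37) was positive in 6 of 6 libraries and under 2-fold. None was called among 9 genes of dorsal and ventral striatum, 10 of immature neurons and 11 immediate early genes. None was called among 22 cholesterol synthesis genes either, whose summed level was 431 against 395 CPM (log2 ratio 0.13, 0.04 to 0.21), or among 20 endolysosomal cholesterol and sphingolipid genes (785 against 748 CPM). Npc1 itself was at 23.7 CPM in Drd2-type and 21.1 CPM in Drd1-type nuclei, a log2 ratio of 0.17 (-0.20 to 0.56), in nuclei pooled over WT and Npc1-/- mice.

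Against other neurons, most genes of the shared striatal list were higher in Drd2-type nuclei. Excitatory nuclei (4516, with at least 3 Slc17a7 UMIs) and Lhx6 interneuron nuclei (247, with at least 2 Lhx6 UMIs) served as the other neuron classes. Against excitatory nuclei 5.34% of the genes tested were called higher and 6.43% lower, and against Lhx6 interneuron nuclei 6.73% higher and 6.54% lower. Of the 22 shared striatal genes, 16 were called higher than in excitatory nuclei and 19 higher than in Lhx6 interneuron nuclei. Of the 30 dopamine, adenosine and cAMP genes, 17 and 21 were, and of the indirect-pathway genes 11 of 15 and 10 of 14.

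Single genes differed widely there. Rarb, a retinoic acid receptor, was 38.8-fold higher in Drd2-type than in excitatory nuclei, Sh3rf2, a ubiquitin ligase, 44.0-fold, and Adcy5 15.2-fold. Mhrt, a long noncoding RNA, was 86.1-fold higher than in excitatory and 30.0-fold higher than in Lhx6 interneuron nuclei. Penk was 15.7-fold and 16.6-fold higher, in all 6 libraries each time. Oprd1 did not follow, since Lhx6 interneuron nuclei held 102 CPM against 66.0 CPM in Drd2-type nuclei. Its log2 ratio of -0.62 (-0.81 to -0.43) was negative in 6 of 6 libraries and under 2-fold. Of the same list, Ptprm, at -0.93, and Cadm1, at -0.67, were higher than in Lhx6 interneuron nuclei in 0 of 6 libraries. Grik3, at 0.32, was not called.

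**Figure D4:**
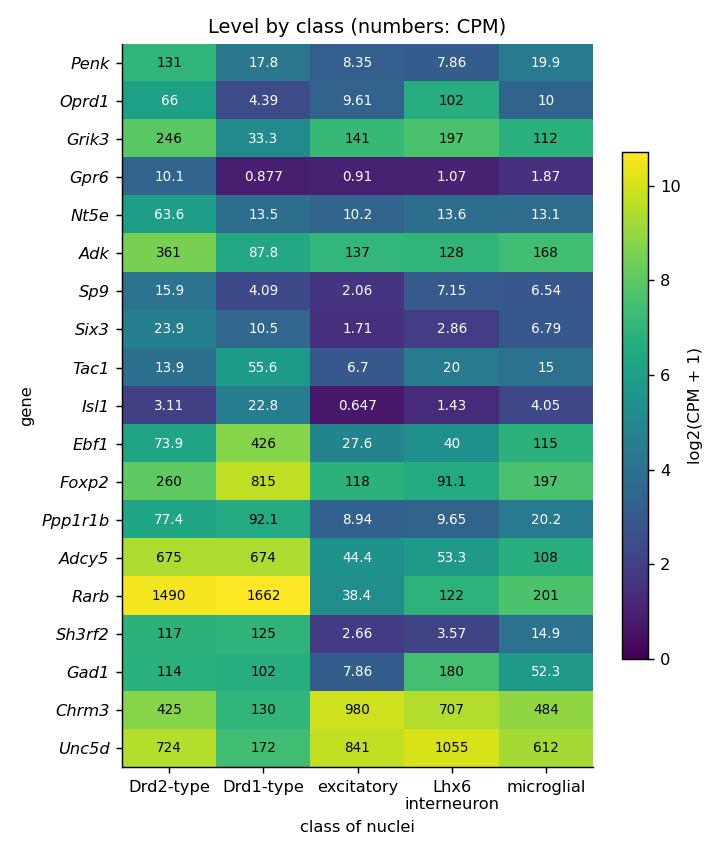
Colours give log2(CPM + 1) and the printed numbers CPM for each gene (rows) in 5 classes of nuclei (columns). Penk reached 131 CPM in Drd2-type nuclei and at most 19.9 CPM elsewhere, whereas Oprd1 reached 102 CPM in Lhx6 interneuron nuclei and Chrm3 was higher in excitatory and Lhx6 interneuron nuclei than in either striatal type.

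Microglial nuclei (1825, at least 4 UMIs of Csf1r, Cx3cr1 and P2ry12) were taken as a class that should lack Drd2 and Penk transcripts. The class had no limit on neuronal transcripts, and 34 of its nuclei were also Drd2-type and 4 Drd1-type. Drd2 was at 20.6 CPM, Penk at 19.9 CPM and Ppp1r1b at 20.2 CPM there. The shared striatal list summed to 6368 CPM there, against 7807.5 CPM in excitatory and 2662 CPM in Lhx6 interneuron nuclei. Its sum therefore cannot be read as striatal RNA alone. The microglial class reached 342380 UMIs in a single nucleus, and no doublets were removed from any class. In the 1217 microglial nuclei with at most 1 UMI each of Rgs9, Slc17a7, Gad1 with Gad2, Drd2 with Adora2a, and Drd1, a subset chosen after seeing the data, Penk was at 23.3 CPM, Ppp1r1b at 20.9 CPM and the shared striatal list at 4411 CPM. Doublet scores were in the highest 10% for 15.7% of Drd2-type and 14.6% of Drd1-type nuclei.

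Summed markers of other cell types differed by under 2-fold between the striatal types. No marker gene was called, against 0.962% of all genes called higher and 0.273% lower, so the count is no result about the markers. The 5 oligodendrocyte markers summed to 711 CPM in Drd2-type and 688 CPM in Drd1-type nuclei, but ranged from 235 to 1230 CPM over the Drd2-type libraries. Their log2 ratio was positive in 6 of 6 libraries, from 0.03 to 1.19. Astrocyte markers stood at 636 and 537 CPM, a log2 ratio of 0.25 (0.17 to 0.32), higher in 4 libraries and lower in 2. Microglial markers stood at 69.3 and 71.4 CPM, excitatory neuron markers at 54.8 and 57.0 CPM, interneuron markers at 197 and 172 CPM, and oligodendrocyte progenitor markers at 65.2 and 55.0 CPM. Endothelial markers were at 121 against 77.5 CPM, a log2 ratio of 0.64 (0.46 to 0.84), and cholinergic neuron markers at 5.56 against 3.51 CPM, too few to test. Leaving out nuclei with vascular transcripts gave 108 genes called higher, 74 of them among the 127. The part of the other cell types in the differences above was not tested.

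The levels of several genes outside the rule were set against the number of receptor UMIs, a comparison chosen after values had been seen. Within the striatal gate, Penk was at 19.0 CPM in the 2666 nuclei with no UMI of any of the 3 receptors, at 72.8 CPM in the 443 with 1 UMI of Drd2 or Adora2a, and at 118, 115 and 138 CPM in Drd2-type nuclei with 2, 3 and at least 4. Oprd1 went from 10.9 to 31.6 CPM over the same step and then to 61.3, 51.9 and 70.6 CPM. Adk stood at 127, 249, 360, 354 and 363 CPM and Nt5e at 15.2, 32.2, 53.2, 59.9 and 67.3 CPM. The nuclei with 1 receptor UMI, just outside the rule, thus lay between those with none and those taken in for these 4 genes, while Adk differed little among the latter. Sp9 did not follow this course, at 5.05, 5.46 (3.33 to 8.42), 15.2, 18.3 and 15.5 CPM, and stood as low with 1 UMI as with none.

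Tac1 and Isl1 of the direct pathway and Foxp2 of the shared list ran the other way. Tac1 was at 38.4 CPM with no receptor UMI, 26.2 CPM with 1, and 15.2, 9.35 and 14.6 CPM in Drd2-type nuclei with 2, 3 and at least 4. Foxp2 stood at 622, 353, 279, 240 and 260 CPM in that order and Isl1 at 15.5, 7.91, 4.46, 3.83 and 2.58 CPM. Ebf1 was uneven, at 226, 189, 91.1, 122 and 58.1 CPM. For Penk and Tac1, the step from 1 to 2 receptor UMIs was larger than any difference among Drd2-type nuclei with 2, 3 or more.

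**Figure D5:**
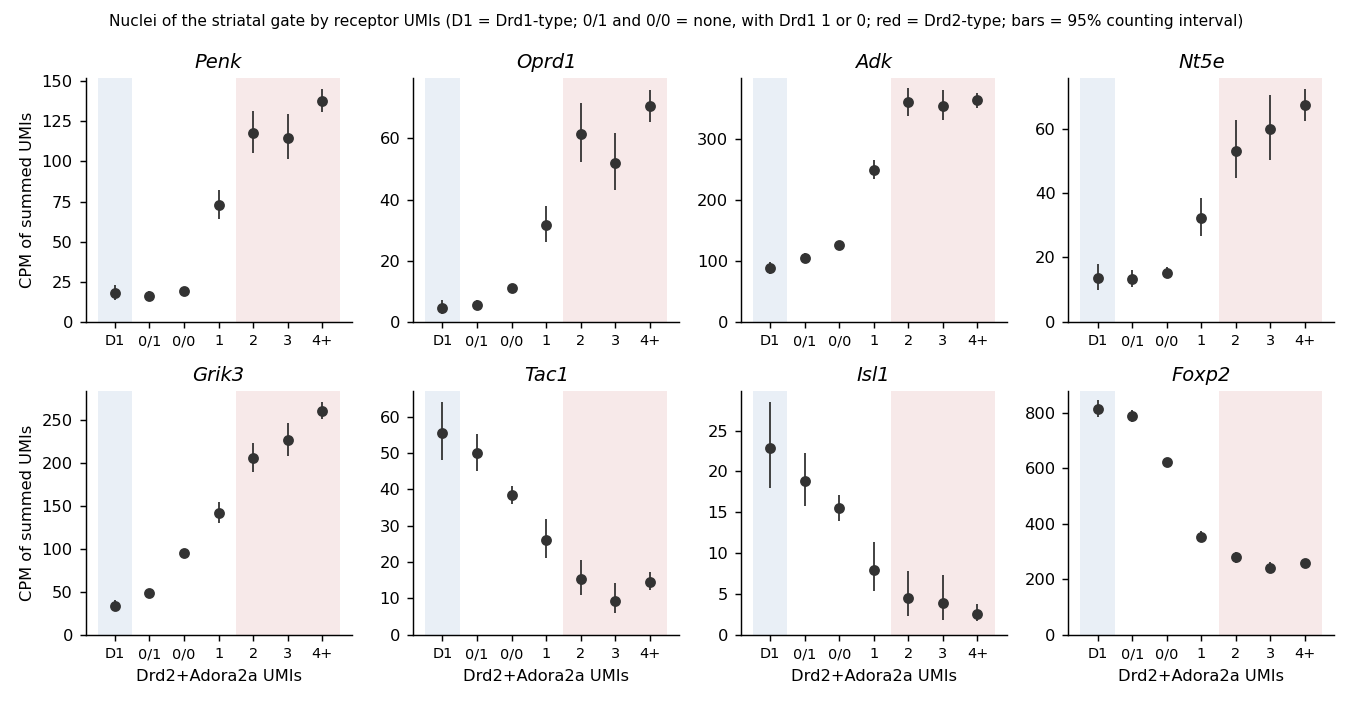
Points give the CPM of summed UMIs with its 95% counting interval for nuclei of the striatal gate, from Drd1-type nuclei on the left through nuclei without Drd2 and Adora2a (with 1 or 0 Drd1 UMIs) to those with 1, 2, 3 and at least 4 UMIs of Drd2 and Adora2a, of which the last 3 are Drd2-type. Penk stood at 17.8, 16.2, 19.0, 72.8, 118, 115 and 138 CPM from left to right, and Foxp2 at 815, 788, 622, 353, 279, 240 and 260 CPM.

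Drd2-type nuclei that met the rule through different receptors differed somewhat in Penk. The 537 nuclei with Drd2 alone had 110 CPM (100.2 to 119) and the 1060 with both receptors 140 CPM (133 to 148). Their libraries overlapped, at 84.2 to 159 and 108 to 156 CPM. The 53 with Adora2a alone had 129 CPM (97.4 to 168), with libraries between 62.2 and 272 CPM. In the last group Ebf1 was at 564 CPM, with libraries between 0 and 1624 CPM, against 69.5 CPM with Drd2 alone and 55.2 CPM with both. Nuclei kept out because they held Drd1 as well as at least 2 UMIs of Drd2 and Adora2a numbered 144. They had a median depth of 12992 UMIs, with 110 CPM of Penk, 54.2 CPM of Tac1 and 440 CPM of Foxp2, so that each peptide gene was near its level in the type in which it is the higher. The 25 of them with at least 2 Drd1 UMIs had a median of 20272 UMIs.

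Several genes called higher lay next to each other on the genome (coordinates from GENCODE M21 on GRCm38). Of 125 such genes with a position, 24 (19.2%) lay within 200000 bases of another gene called higher or of Drd2 or Adora2a, against 4.31% of the 13200 tested genes with a position. Of the 36 called lower, 4 (11.1%) lay as close to another gene called lower, against 0.75%. Genes of these pairs that lie outside the lists were chosen after their values had been seen.

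Ankk1 (chromosome 9, 49415194 to 49427021), a kinase gene on the minus strand whose 3′ end lies 7016 bases from that of Drd2, had 107 UMIs in Drd2-type and 2 in Drd1-type nuclei, a ratio of 12.1 (3.27 to 101). Its level was 0.187 CPM in microglial and 0.035 CPM in excitatory nuclei, against 7.08 CPM in Drd2-type nuclei. Upb1 (chromosome 10, 75401115 to 75441679), an enzyme of pyrimidine breakdown 66330 bases from Adora2a, had 179 UMIs in Drd2-type nuclei, 25 to 41 in each library, and none in Drd1-type nuclei. Taken against the limit of 3 counts over the class, it was at least 13.5-fold higher. On chromosome 10 Gpr6 also lay 115886 bases from Fig4, Fig4 719 bases from Ak9 and Ak9 84879 bases from Cd164, with log2 ratios of 1.19 for Ak9 and 1.01 for Cd164.

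Other pairs overlapped. A830012C17Rik (chromosome 4, 4138321 to 4188703, plus strand) shares 499 bases with the 5′ end of Penk (4133531 to 4138819, minus strand) and had 243 UMIs against 3, a ratio of 18.3 (6.19 to 89.4), with 12 to 21.5 CPM in the Drd2-type libraries. Gm11844 lies inside Necab1 (log2 ratio 2.95), Nell1os inside Nell1 (2.66), Gm47405 inside Chrm3 (2.90), 1700016K05Rik inside Ptprm and 1700042O10Rik inside Ddc. By type, 15 of the genes called higher and 0 of those called lower were annotated as antisense, a type that made up 5.17% of the tested genes with a position. Whether counting used the strand is not stated in the study, the labels or the headers. It is therefore not known here whether reads of a gene and its antisense partner were counted apart.

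The Drd2-type nuclei were also compared among themselves by patch and matrix genes. The 377 nuclei with at least 2 UMIs of Oprm1 and Kremen1, which mark patches, had a median of 10405 UMIs, and the 891 with none had 7053. Of the other patch genes, Bach2 was higher in the former in 6 of 6 libraries (log2 ratio 0.49, 0.35 to 0.64), while Sema5b, at 0.16 (-0.06 to 0.37), was higher in 4. Of 8 matrix genes, Epha4 and Zfp804a were lower in 6 of 6 libraries, by log2 ratios of -0.25 (-0.34 to -0.15) and -0.26 (-0.33 to -0.19), and Epha7 in 5. The matrix genes Brinp3, at 0.08 (0.01 to 0.16), and Sv2b, at 0.14 (-0.02 to 0.29), were higher in 4 and 5 libraries. The patch genes Nnat, at -0.27, and Sox1, at -1.40 (-2.84 to -0.18) from 7 and 29 UMIs, were lower in 5 and 4 libraries, and no gene of the lists reached 2-fold in all libraries.

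Between libraries the Drd2-type nuclei were similar for most genes. Of 2588 genes with at least 1000 UMIs, the highest library exceeded the lowest by a median log2 ratio of 0.35, and 136 genes (5.26%) by more than 2-fold. The widest range was that of Xist, the RNA of the inactive X chromosome, from 2.13 to 1381 CPM, with Flt1 from 10.6 to 124 CPM, the myelin gene Mbp from 129 to 734 CPM, Ebf1 and mitochondrial transcripts among the next. An Mbp UMI was found in 47.9% of thinned Drd2-type nuclei and in 58.3% of thinned microglial nuclei. Where these transcripts came from was not tested. Penk, by contrast, spanned 100.1 to 159 CPM and Adcy5 640 to 693 CPM.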

How the data were processed

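Nuclei of 6 forebrain libraries (3 WT and 3 Npc1-/- mice, P16) were measured. The deposited values are UMI counts per gene and barcode, raw in the matrix the authors made, whose header names Cell Ranger 6.0.0. The submitters' processing notes list Cell Ranger 2.1.1 and mm10, while the study's methods describe STARsolo with GRCm38, removal of empty droplets and doublets, imputation and log-normalization, none of which was applied here beyond the mitochondrial limit of 10%. The alignment and annotation behind this matrix, and the use of strand in counting, could not be read from the labels, the header or the methods. The labels aim at about 10000 nuclei per sample, and the libraries held 8217 to 16118 barcodes and 497750379 UMIs in all.

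Classes were taken by fixed UMI thresholds, UMIs were summed per class and library, and ratios were given exact 95% intervals (Poisson for levels, conditional binomial for ratios, Clopper-Pearson for shares). A count model between groups was not possible without a key to the mice, so no p-value was computed. Excitatory nuclei had at least 3 Slc17a7 UMIs and at most 1 each of Rgs9, Lhx6 and Gad1 with Gad2, and Lhx6 interneuron nuclei at least 2 Lhx6 and 2 Gad1 with Gad2 UMIs and at most 1 each of Rgs9 and Slc17a7. Named genes were those of the lists, plus, beyond them, the 15 called genes with the largest ratio and the 15 with the smallest among genes with at least 200 UMIs (13 existed for the latter), and the 10 largest against each other neuron class among genes with at least 500 UMIs. A few items are not reported here. Genes outside this rule are said to be so where they appear. Members and lists were chosen with earlier results of these data known. Doublets were scored with Scrublet, whose own threshold marked 5.98% of library 2 and at most 0.0328% of any other library and so was not used as a caller. The scores served only to leave out the highest 10% as an alternative. Gene positions came from GENCODE M21, which matched 32235 of 32285 IDs, and promoters from RefSeq GRCm38.p6. Python 3.11.15, numpy 2.4.6, scipy 1.17.1, pandas 2.3.3, scanpy 1.11.5 and matplotlib 3.10.9 were used, and the scripts were tested on simulated data.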

Additional observations from a re-analysis of the deposited data

How the results depend on the processing

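Alternatives were a stricter rule for both classes (Rgs9 at least 3 UMIs, Pde10a 5, receptors 3), a looser one (receptors 1), nuclei of 5000 to 20000 UMIs, no nuclei of high doublet score, other scalings and filters, each library left out and, chosen after seeing the data, no nuclei with vascular RNA. The share of Drd2-type nuclei, 2.17%, was 1.55% with the stricter rule, 2.76% with the looser, 3.76% at 5000 to 20000 UMIs and 2.04% without high doublet scores, and between 2.12% and 2.23% without single libraries. Their share of both striatal types, 84.8%, was 94.2% and 66.2% with the stricter and looser rules, and between 84.2% and 85.8% without single libraries. The 127 genes called higher became 220 with the stricter rule (73 Drd1-type nuclei), 37 with at least 200 UMIs and 299 with at least 1, and 125 to 166 without single libraries. The 36 genes called lower became 18 with at least 200 UMIs and 54 with at least 1, and 36 to 47 without single libraries, and 13 and 26 of them were called again with the stricter and looser rules. Of the 127, 74 remained without vascular RNA and 65 without high doublet scores. The indirect-pathway log2 ratio of 1.17 was 1.26 with the stricter rule, 1.03 with the looser, 1.29 without high doublet scores and 1.30 by the median of within-library ratios, and between 1.12 and 1.27 without single libraries. The direct-pathway ratio of -1.28 was -1.35, -1.08 and -1.37 under the first 3 of these and -1.40 without vascular RNA, and between -1.35 and -1.22 without single libraries. The causes were not tested. No named ratio changed direction in a called gene, and 40 of the 50 called named genes with alternatives stayed at least 2-fold in all of them, the exceptions being Six3, Zfp804a, Glra3, Mro, Insyn2a, Cpne7, Acsbg1, Cntnap5c, Gpr26 and Gm6260.

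Without library 1 the log2 ratio of A830012C17Rik was 5.29 (4.20 with it) and without library 6 that of Gm11844 was 3.82 (2.95 with it). The microglial level of Oprd1 was 10.02 CPM, or 3.91 CPM without nuclei with neuronal transcripts, an alternative added after seeing the data. No paired analysis was possible because the barcodes carry no replicate number of the labels. With 295 Drd1-type nuclei, genes under about 50 UMIs could not be compared at this depth.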
